A study of Mus musculus with 19 samples.

Results

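The genes examined here were 10 apolipoprotein genes, Apoa1, Apoa2, Apoa4, Apoa5, Apob, Apoc1, Apoc3, Apoe, Apoh and Apom. In the table they stand in capitals, as APOA1, APOA2, APOA4, APOA5, APOB, APOC1, APOC3, APOE, APOH and APOM. They were chosen by symbol from the 19486 genes of a table of RNA levels in mouse liver tumors, without reference to their values. All 10 were in the table and all 10 passed the filter on low values, a level of at least 1 in at least 3 libraries, which 13253 genes passed. The table held 19 libraries in 5 groups, written here as the labels write them. MYC_Recur, MYC_Twist1_OFF and MYC_OFF had 3 libraries each, and MYC_Twist1_HCC and MYC_HCC had 5 each. HCC is hepatocellular carcinoma, the tissue given for all 5 groups, and every library came from total RNA of frozen tumor. The labels give the oncogene names alone: no allele, driving promoter, strain, age, drug or time point is stated for any group, nor whether the libraries of a group came from separate animals. The p-values therefore measure the spread between these libraries. The 10 HCC libraries were re-analysed from an earlier deposit and the other 9 were new, so in each comparison of an HCC group with an OFF or Recur group, tumor state and deposit cannot be told apart.

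Apolipoproteins are the proteins of plasma lipoprotein particles, and the liver makes most of them. Apob is the large scaffold of very low density lipoprotein, onto which the transfer protein Mttp loads lipid inside the hepatocyte. Apoa1 and Apoa2 are the main proteins of high density lipoprotein, which carries cholesterol back to the liver, and Apom on those particles carries sphingosine-1-phosphate. Apoe binds the receptors that clear remnant particles, while Apoc1 and Apoc3 slow that clearance and Apoc3 also restrains lipoprotein lipase. Apoa5 promotes the action of lipoprotein lipase on triglyceride, and Apoa4 takes part in triglyceride secretion and satiety. Apoh, beta-2-glycoprotein I, is a phospholipid-binding plasma glycoprotein that is named with the apolipoproteins but built of complement control repeats.

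The levels below are the authors' normalised values, whose formula is not given in the sources used here, so they were compared between libraries and not between genes. Fold changes are on the scale of log2(value + 1), with limma's test adjusted by the Benjamini-Hochberg method over the 13253 genes, and a gene was called at an adjusted p under 0.05. The labelled tissue was checked with Alb, the main plasma protein of hepatocytes, which averaged 1819 ± 438 in MYC_Recur, 267 ± 22.7 in MYC_Twist1_OFF, 321 ± 80.4 in MYC_OFF, 1113 ± 279 in MYC_Twist1_HCC and 2407 ± 1262 in MYC_HCC (SD, n = 3, 3, 3, 5 and 5). Myc averaged 156 ± 3.14 in MYC_Recur, 39.7 ± 6.65 in MYC_Twist1_OFF, 45.7 ± 13.1 in MYC_OFF, 125 ± 19.3 in MYC_Twist1_HCC and 160 in MYC_HCC. Twist1 was at most 0.27 in every library, so its level did not separate the groups named for it. One library, MYC_HCC 4, stood apart for 6 of the 10 genes on the deposited scale. Results that rest on it are given with and without it.

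Of these genes, 4 lie in a cluster on chromosome 9 and 2 are neighbours on chromosome 7. In GRCm38, Apoa1 (chr9:46228580-46230466, plus strand) is followed by Apoc3 (chr9:46232933-46235636, minus), Apoa4 (chr9:46240696-46243459, plus) and Apoa5 (chr9:46268633-46271919, plus), with 2466, 5059 and 25173 bases between neighbours. Apoc1 (chr7:19689481-19692660, minus) and Apoe (chr7:19696109-19699188, minus) are 3448 bases apart. The others stand alone: Apoa2 at chr1:171225054-171226379 (plus), Apoh at chr11:108343354-108414396 (plus), Apob at chr12:7977648-8016835 (plus) and Apom at chr17:35128997-35132050 (minus). The annotated Apoh gene overlaps Prkca on the opposite strand by 575 bases, and the sources do not say if the counting was strand-specific. Prkca itself was between 0 and 7.23 in all 19 libraries, and the part of this overlap in the Apoh values was not tested.

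Promoter sequence was available from RefSeq (GRCm38.p6) for 8 of the 10 genes, in 12 windows; Apoc1 and Apoc3 had none. Shown are the bases just before the start of the gene that moved up in both OFF groups, Apoh, of a pair that moved down in both, Apoa1 and Apob, and of Apoa5, the chr9 neighbour of Apoa1 that was not called in any comparison. Capitals mark matches to any of the motifs searched, and the runs stop where an annotated exon begins.
Apoh, chr11:108395047-108395292, plus: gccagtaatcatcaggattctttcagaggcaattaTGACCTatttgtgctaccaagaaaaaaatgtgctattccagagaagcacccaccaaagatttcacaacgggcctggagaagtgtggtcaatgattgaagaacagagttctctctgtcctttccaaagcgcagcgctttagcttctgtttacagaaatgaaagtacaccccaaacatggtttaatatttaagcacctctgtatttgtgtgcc
Apoa1, chr9:46228380-46228579, plus: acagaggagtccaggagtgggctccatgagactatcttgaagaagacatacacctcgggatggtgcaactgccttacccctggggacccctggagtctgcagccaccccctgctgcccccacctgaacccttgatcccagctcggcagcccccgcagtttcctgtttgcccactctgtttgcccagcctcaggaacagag
Apob, chr12:7977427-7977647, plus: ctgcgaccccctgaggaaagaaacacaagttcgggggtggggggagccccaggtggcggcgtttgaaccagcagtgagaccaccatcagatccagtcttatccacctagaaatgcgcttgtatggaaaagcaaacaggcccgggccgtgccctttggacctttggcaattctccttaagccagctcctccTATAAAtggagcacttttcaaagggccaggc
Apoa5, chr9:46268358-46268607, plus: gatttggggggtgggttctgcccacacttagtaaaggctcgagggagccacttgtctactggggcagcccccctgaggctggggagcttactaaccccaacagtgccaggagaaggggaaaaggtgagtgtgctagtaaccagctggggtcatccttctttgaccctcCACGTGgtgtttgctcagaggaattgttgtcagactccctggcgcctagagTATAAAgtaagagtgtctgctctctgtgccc
The starts used by RefSeq can differ from the gene spans given above: for Apoh and Apob they lie inside the span, and for Apoa5 before it. Distances below are to the RefSeq start. Motifs were searched on both strands of up to 250 bases before the start, in these genes and in 32851 mouse windows. Some windows of members were shorter, with 200 bases for Apoa1, 102 for Apoa4 and 1 for Apom, so Apom could not be searched. AGGTCA, the core site of nuclear receptors, occurred in 14% of those windows. The direct repeat of that core spaced by 1 base, which contains it, occurred in 0.0335%, and an HNF4A form, CAAAGTCCA, in 0.384%. The E-box CACGTG occurred in 6.02% and the TATA box, TATAAA, in 12.4%. Apoh had 1 nuclear receptor core site on the minus strand, 215 bases before the start. Apoa2, which was lower in both OFF groups, also had 1 on the minus strand, 238 bases before a RefSeq start. It had a TATA box 212 bases before another start. Apoe had a TATA box match on each strand, 96 and 100 bases before a start. Apob had a TATA box 60 bases before its RefSeq start, and Apoa5 had an E-box 82 bases and a TATA box 31 bases before. From another RefSeq start of Apoa5 the same sites lay 107 and 56 bases before. Apoa1 had no match to these 5 motifs in its window of 200 bases. A match describes letters and not a bound site.

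In both OFF groups Apoa1, Apoa2, Apob and Apoe were lower than in the matching HCC group and Apoh was higher. In MYC_Twist1_OFF against MYC_Twist1_HCC, those 4 of the 10 genes fell, where 33.5% of all tested genes fell, and 1 rose (Apoh), where 13.1% of all tested genes rose. In MYC_OFF against MYC_HCC, 6 of 10 fell (the same 4 with Apoa4 and Apoc3), where 39.4% of all genes fell, and Apoh rose, where 18.9% did. In MYC_Recur against MYC_OFF, 4 of 10 rose (Apoa1, Apoa2, Apob and Apoe), where 37.5% of all genes rose, and Apoh fell, where 12% did. Changes were common among all genes, so these counts alone are no result about the apolipoprotein genes; the sizes of single members follow below. The median log2 fold change of the 10 genes was -0.89 in MYC_Twist1_OFF against MYC_Twist1_HCC, -1.58 in MYC_OFF against MYC_HCC and 0.66 in MYC_Recur against MYC_OFF, beside medians of all tested genes of -0.32, -0.38 and 0.45. The comparisons with MYC_OFF share its 3 libraries, so they are not independent of each other.

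Since the median of all genes moved in these comparisons, the result was also taken after dividing each library by its median of ratios, which brought that median to 0.03, 0.07 and -0.09 for the same 3 comparisons. The higher and lower shares of all genes then became 22% and 20.7% in MYC_Twist1_OFF against MYC_Twist1_HCC, 29.4% and 26.5% in MYC_OFF against MYC_HCC, and 20.6% and 23% in MYC_Recur against MYC_OFF. With that scaling the members called were 1 higher and 4 lower in MYC_Twist1_OFF against MYC_Twist1_HCC, 2 higher and 4 lower in MYC_OFF against MYC_HCC, and 2 higher and 1 lower in MYC_Recur against MYC_OFF. In the last of these Apoe (log2 fold change 0.77) and Apob (0.46) were no longer called, whereas Apoa1 and Apoa2 were. Reduced RNA from a cell type cannot be told apart from fewer cells of that type in these bulk tumors.

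**Figure D1:**
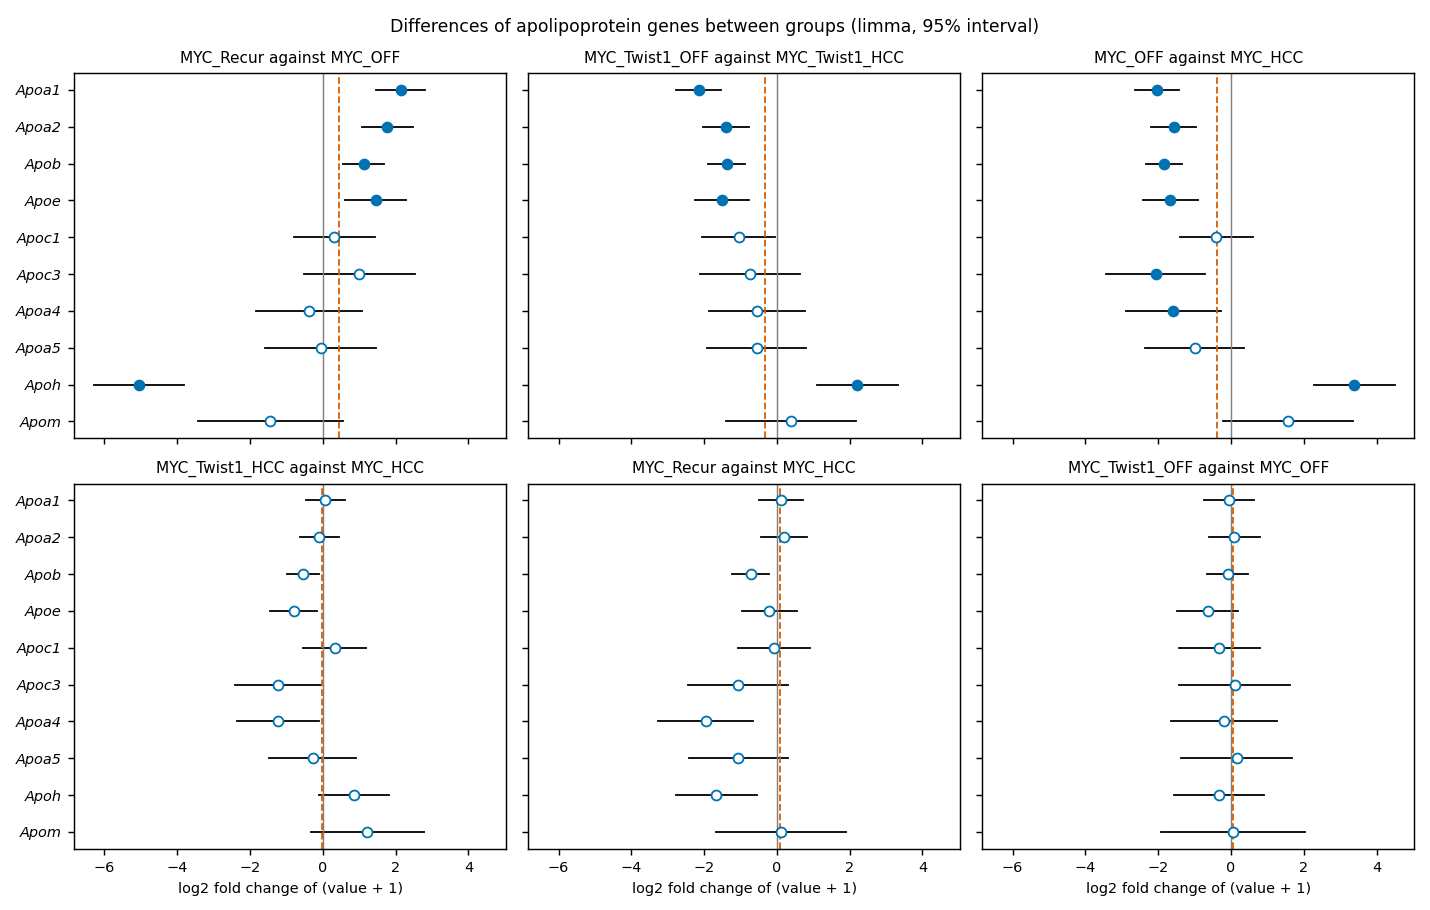
Log2 fold change of each of the 10 genes in 6 comparisons, with the limma 95% interval; filled points were called at an adjusted p under 0.05 and the dashed line is the median of all 13253 tested genes. Apoh lies opposite to Apoa1, Apoa2, Apob and Apoe where they are called, at -5.05 in MYC_Recur against MYC_OFF, 2.21 in MYC_Twist1_OFF against MYC_Twist1_HCC and 3.39 in MYC_OFF against MYC_HCC.

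Apoa1, the main protein of high density lipoprotein, was high in MYC_Recur and both HCC groups and low in both OFF groups. It was at 1775, 1723 and 1796 in MYC_Recur, at 313, 417 and 438 in MYC_Twist1_OFF and at 506, 336 and 376 in MYC_OFF. In MYC_Twist1_HCC it was at 1554, 1647, 1715, 2385 and 1426, and in MYC_HCC at 2044, 2579, 1705, 886 and 1469. Every MYC_Recur and HCC library, MYC_HCC 4 with 886 included, was above every OFF library. The 3 MYC_Recur values spanned the smallest range of any group, with a mean of 1764 ± 37.7 (SD, n = 3) against 406 ± 89.0 in MYC_OFF (SD, n = 3). The log2 fold change was 2.14 (SE 0.32, limma adjusted p = 3.90e-05) in MYC_Recur against MYC_OFF, -2.15 (SE 0.29, adjusted p = 1.79e-05) in MYC_Twist1_OFF against MYC_Twist1_HCC and -2.03 (SE 0.29, adjusted p = 1.32e-05) in MYC_OFF against MYC_HCC. Relative to the median of all genes these shifts were 1.68, -1.83 and -1.65.

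Among all tested genes, Apoa1 in MYC_Twist1_OFF against MYC_Twist1_HCC stood at percentile 3.5, and in MYC_Recur against MYC_OFF at percentile 93.5. Between the 2 HCC groups its log2 fold change was 0.07, and MYC_Recur against MYC_HCC gave 0.11, neither called by limma. The means of MYC_Recur, MYC_Twist1_HCC (1745 ± 374, n = 5) and MYC_HCC (1737 ± 632, n = 5) were in that order, and these neighbours overlapped in their ranges.

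Apoa2, the second protein of high density lipoprotein, followed the same split with a smaller shift. It was at 1795, 1884 and 2612 in MYC_Recur, at 712, 520 and 719 in MYC_Twist1_OFF and at 956, 438 and 528 in MYC_OFF. In MYC_Twist1_HCC the values were 1465, 1484, 1931, 2125 and 1555, and in MYC_HCC they were 1857, 1715, 1911, 2767 and 1146. No OFF library reached any library of the other 3 groups. MYC_OFF 1 was the highest OFF library for Apoa2, as it was for Apoa1, Apob and Apoe. The log2 fold change of Apoa2 was 1.77 (SE 0.33, adjusted p = 0.000279) in MYC_Recur against MYC_OFF, -1.39 (SE 0.30, adjusted p = 0.00101) in MYC_Twist1_OFF against MYC_Twist1_HCC and -1.58 (SE 0.30, adjusted p = 0.000214) in MYC_OFF against MYC_HCC.

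Apom, the sphingosine-1-phosphate carrier, did not follow Apoa1 and Apoa2, although all 3 ride on high density lipoprotein. Its level was 152, 218 and 108 in MYC_Recur, 430, 314 and 612 in MYC_Twist1_OFF and 319, 495 and 467 in MYC_OFF. It was 353, 273, 371, 344 and 326 in MYC_Twist1_HCC, and 305, 259, 305, 6.55 and 314 in MYC_HCC. The MYC_Recur libraries were all below the MYC_OFF libraries, and the MYC_HCC libraries were likewise all below them, with MYC_HCC 4 nearly empty. Apom had a log2 fold change of -1.45 in MYC_Recur against MYC_OFF (adjusted p = 0.216) and 1.57 in MYC_OFF against MYC_HCC (adjusted p = 0.121), so neither was called; without MYC_HCC 4 the second was 0.51 (adjusted p = 0.0928). When MYC_HCC 4 was left out, MYC_Recur against MYC_OFF was called at an adjusted p of 0.000288 with the fold change unchanged, since that library enters this comparison through the shared spread only. MYC_Recur against MYC_HCC then changed to a log2 fold change of -0.94 (adjusted p = 0.0264), against 0.12 with all libraries. After the median-of-ratios scaling, MYC_OFF against MYC_HCC was called for Apom at 2.13 (adjusted p = 0.0402).

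**Figure D2:**
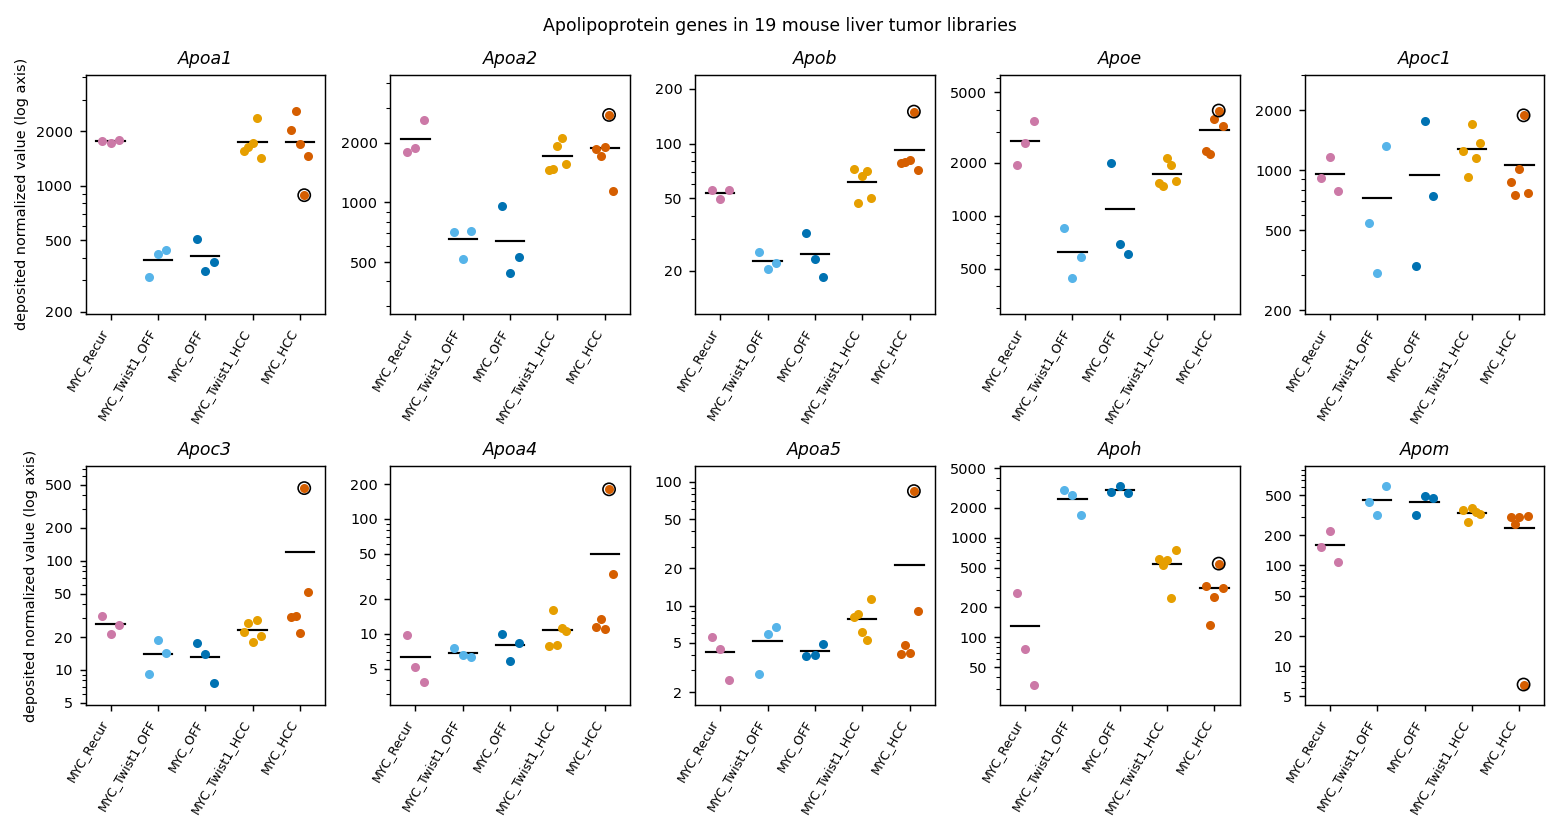
Normalised level of each of the 10 genes in every library, on a log axis, with groups from left to right MYC_Recur, MYC_Twist1_OFF, MYC_OFF, MYC_Twist1_HCC and MYC_HCC; black bars are group means and the ringed point is MYC_HCC 4. Apoa1 and Apoa2 separate the OFF groups from the rest downward, Apoh separates them upward, and the ringed library is far from its group for Apoa4, Apoa5, Apoc3 and Apom.

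Apob, the scaffold of very low density lipoprotein, was lower in the OFF groups than in any other group. Its level was 55.4, 49.3 and 55.4 in MYC_Recur, 25.4, 20.3 and 22.0 in MYC_Twist1_OFF and 32.1, 23.04 and 18.5 in MYC_OFF. It was 72.8, 46.8, 66.0, 70.5 and 49.9 in MYC_Twist1_HCC, and 78.2, 79.2, 81.4, 150 and 71.9 in MYC_HCC. The OFF libraries lay below every other library, MYC_OFF 1 at 32.1 being the nearest to them. For Apob limma gave a log2 fold change of 1.12 (SE 0.27, adjusted p = 0.00210) in MYC_Recur against MYC_OFF, -1.38 (SE 0.24, adjusted p = 0.000165) in MYC_Twist1_OFF against MYC_Twist1_HCC and -1.84 (SE 0.24, adjusted p = 4.51e-06) in MYC_OFF against MYC_HCC.

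Apob was 1 of 2 members, with Apoa4, whose MYC_Recur libraries all lay below the MYC_HCC range. MYC_Recur averaged 53.3 ± 3.49 (SD, n = 3) and MYC_HCC 92.1 ± 32.6 (SD, n = 5), with no overlap. The log2 fold change of -0.72 had a limma adjusted p of 0.0602 and was not called; it was called after the median-of-ratios scaling (-0.83, adjusted p = 0.0369) and without MYC_OFF 1, which enters the shared spread only (adjusted p = 0.0423). Leaving out MYC_HCC 4, MYC_HCC averaged 77.7 ± 4.06 (SD, n = 4), still without overlap. Mttp, which lipidates Apob, averaged 101 ± 15.8 in MYC_Recur, 54.4 ± 10.4 in MYC_Twist1_OFF, 46.7 ± 6.86 in MYC_OFF, 118 ± 15.8 in MYC_Twist1_HCC and 121 ± 36.0 in MYC_HCC, with log2 fold changes of 1.10, -1.10 and -1.31 in the 3 comparisons in which Apob was called.

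Apoe, the receptor ligand of remnant particles, was low in 5 of the 6 OFF libraries. It was at 1941, 2575 and 3436 in MYC_Recur, at 851, 445 and 581 in MYC_Twist1_OFF and at 2002, 689 and 604 in MYC_OFF. In MYC_Twist1_HCC it was at 1538, 1480, 2126, 1944 and 1575, and in MYC_HCC at 2332, 2239, 3550, 3949 and 3245. MYC_OFF 1, at 2002, was inside the ranges of MYC_Recur and MYC_Twist1_HCC, and the other OFF libraries were below every library of MYC_Recur and both HCC groups. Apoe had a log2 fold change of 1.45 (SE 0.40, adjusted p = 0.00587) in MYC_Recur against MYC_OFF, -1.50 (SE 0.36, adjusted p = 0.00236) in MYC_Twist1_OFF against MYC_Twist1_HCC and -1.66 (SE 0.36, adjusted p = 0.000690) in MYC_OFF against MYC_HCC. Fitted on its own 2 groups, MYC_Recur against MYC_OFF had an adjusted p of 0.0588.

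Apoe was also the only member whose ranges in the 2 HCC groups did not overlap. All 5 MYC_Twist1_HCC libraries, with a mean of 1733 ± 285, lay below all 5 MYC_HCC libraries, with a mean of 3063 ± 753 (SD, n = 5 each). Its log2 fold change was -0.80 (SE 0.31, 95% interval -1.45 to -0.15), but the limma p adjusted over all genes was 0.121. It was called when the 2 groups were fitted alone (adjusted p = 0.0430) and when MYC_OFF 1 was left out of the shared spread (adjusted p = 0.0422). Without MYC_HCC 4 it was -0.70 and not called (adjusted p = 0.198). Apob, whose ranges overlapped, had -0.55 with a limma adjusted p of 0.114. In MYC_Twist1_HCC against MYC_HCC, limma called 0 of the 10 genes, where 6.43% of all tested genes were called. An unadjusted p under 0.05 was found for 4 of the 10 (Apob, Apoe, Apoa4 and Apoc3) and for 24.3% of all tested genes. Apoa4 and Apoc3 each had a log2 fold change of -1.23 there, and -0.54 and -0.47 without MYC_HCC 4.

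Apoc1, which lies beside Apoe and slows remnant uptake, did not follow it. Its level was 920, 1161 and 786 in MYC_Recur, 547, 307 and 1320 in MYC_Twist1_OFF and 332, 1754 and 741 in MYC_OFF. It was 1246, 922, 1698, 1147 and 1365 in MYC_Twist1_HCC, and 878, 754, 1020, 1883 and 774 in MYC_HCC. The groups overlapped throughout, and the 2 OFF groups held both the lowest values and, in MYC_OFF 2, the second highest of all. No comparison was called: the log2 fold change was 0.32 in MYC_Recur against MYC_OFF, -1.05 in MYC_Twist1_OFF against MYC_Twist1_HCC (adjusted p = 0.0800) and -0.40 in MYC_OFF against MYC_HCC (adjusted p = 0.487). Without MYC_Twist1_OFF 3, the library at 1320, the second of these was -1.61 and was called (adjusted p = 0.0145), and it was called unchanged in size without MYC_OFF 1 (0.0450) or MYC_OFF 2 (0.0459). The third was 0.17 after the median-of-ratios scaling.

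The ratio of Apoc1 to Apoe within a library, which no scaling between libraries can change, was higher in MYC_Twist1_HCC than in MYC_HCC. Its log2 averaged -0.46 ± 0.25 in MYC_Twist1_HCC and -1.58 ± 0.38 in MYC_HCC (SD, n = 5 each), a difference of 1.13 with no overlap. The two-sided exact permutation p was 0.00794, the smallest that 5 against 5 libraries can give, and adjusted over the 30 ratio tests it was 0.214. None of the 30 ratio tests passed after adjustment.

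Apoc3, the inhibitor of lipoprotein lipase, was low in most libraries and very high in 1. It was at 31.0, 21.4 and 25.9 in MYC_Recur, at 9.11, 18.6 and 14.1 in MYC_Twist1_OFF and at 17.6, 14.1 and 7.61 in MYC_OFF. In MYC_Twist1_HCC it was at 22.4, 26.7, 18.1, 28.9 and 20.6, and in MYC_HCC at 30.3, 31.0, 21.8, 463 and 52.3. MYC_OFF lay below MYC_Recur, MYC_Twist1_HCC and MYC_HCC without overlap, while MYC_Twist1_OFF touched MYC_Twist1_HCC. In MYC_OFF against MYC_HCC the log2 fold change was -2.07 (SE 0.65, adjusted p = 0.0113); without MYC_HCC 4 it was -1.31 (adjusted p = 0.00147), and without MYC_OFF 3 the call was lost (adjusted p = 0.0581). It was also lost after the median-of-ratios scaling, at -1.54, and with the 2 groups fitted alone (adjusted p = 0.0644). MYC_Recur against MYC_OFF gave 1.0 (adjusted p = 0.267), and MYC_Twist1_OFF against MYC_Twist1_HCC gave -0.73 (adjusted p = 0.369). With MYC_HCC 4 left out of the shared spread both were called, at adjusted p values of 0.0162 and 0.0446.

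Apoa4, which takes part in triglyceride secretion, ranged from 3.86 to 16.1 outside the MYC_HCC group. It was at 9.79, 5.16 and 3.86 in MYC_Recur, at 7.55, 6.57 and 6.36 in MYC_Twist1_OFF and at 9.99, 5.88 and 8.39 in MYC_OFF. In MYC_Twist1_HCC it was at 7.88, 16.1, 7.99, 11.2 and 10.6, and in MYC_HCC at 11.6, 13.5, 11.01, 181 and 33.1. Every MYC_HCC library was above every MYC_OFF and every MYC_Recur library. The log2 fold change in MYC_OFF against MYC_HCC was -1.58 (SE 0.62, adjusted p = 0.0368), and without MYC_HCC 4 it was -0.89 (adjusted p = 0.0349). Without both MYC_HCC 4 and MYC_HCC 5 it was -0.54 and not called (adjusted p = 0.122). The call was also lost without MYC_HCC 5 (adjusted p = 0.0667), MYC_OFF 1 (0.0550), MYC_OFF 2 (0.117) or MYC_OFF 3 (0.0719), with the 2 groups fitted alone (0.120), and after the median-of-ratios scaling, where the log2 fold change was -1.07. MYC_Recur against MYC_HCC gave -1.96 with an adjusted p of 0.0506, and without MYC_HCC 4 it gave -1.27 and was called (adjusted p = 0.0283). It was also called without MYC_HCC 1 (0.0370), MYC_HCC 2 (0.0417) or MYC_HCC 3 (0.0319).

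Apoa5, which promotes lipolysis by lipoprotein lipase, was called in no comparison. Its range was 2.51 to 5.60 in MYC_Recur, 2.81 to 6.67 in MYC_Twist1_OFF, 3.92 to 4.88 in MYC_OFF and 5.24 to 11.2 in MYC_Twist1_HCC. In MYC_HCC it was at 4.03, 4.76, 4.11, 84.3 and 9.0. The same 2 libraries, MYC_HCC 4 and MYC_HCC 5, were the highest of their group for Apoa5, Apoa4 and Apoc3. MYC_HCC 4 held 10.4, 15.4 and 13.7 times the mean of the other 4 MYC_HCC libraries for Apoa4, Apoa5 and Apoc3, but 0.455 times that mean for Apoa1, the fourth gene of the chr9 cluster. For Apom it held 0.0222 times the mean of the others. Its Alb level of 4480 was the highest of all 19 libraries.

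Within the chr9 cluster, the ratios of the neighbours to Apoa1 were compared within libraries. The log2 ratio of Apoa4 to Apoa1 averaged -8.01 ± 0.59 in MYC_Recur against -5.49 ± 0.15 in MYC_OFF (SD, n = 3 each), a difference of -2.52. The ratio of Apoa5 to Apoa1 differed by -2.20, and that of Apoc3 to Apoa1 by -1.14, also without overlap. The two-sided exact permutation p of each was 0.1, the smallest that 3 against 3 libraries can give, so this design could not reach the 0.05 level.

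These ratios were thus higher in MYC_OFF than in MYC_Recur, and the other OFF group also had higher ratios than the group it was compared with. Each difference is the log2 fold change of the neighbour minus that of Apoa1, so it is no separate result. In MYC_Recur against MYC_OFF those were -0.38 for Apoa4, -0.06 for Apoa5 and 1.0 for Apoc3, beside 2.14 for Apoa1. In MYC_Twist1_OFF minus MYC_Twist1_HCC the log2 ratios to Apoa1 were higher by 1.61 for Apoa4, 1.6 for Apoa5, 1.42 for Apoc3 and 0.76 for Apoa2, with no overlap and an exact permutation p of 0.0357 each, the smallest that 3 against 5 libraries can give. Adjusted over the 30 tests none of these passed, the lowest adjusted p being 0.214. In MYC_OFF minus MYC_HCC the groups overlapped: the Apoa4 to Apoa1 ratio differed by 0.45 (exact permutation p = 0.75), and the Apoc3 to Apoa1 ratio by -0.04 with all libraries and by 0.94 without MYC_HCC 4.

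**Figure D3:**
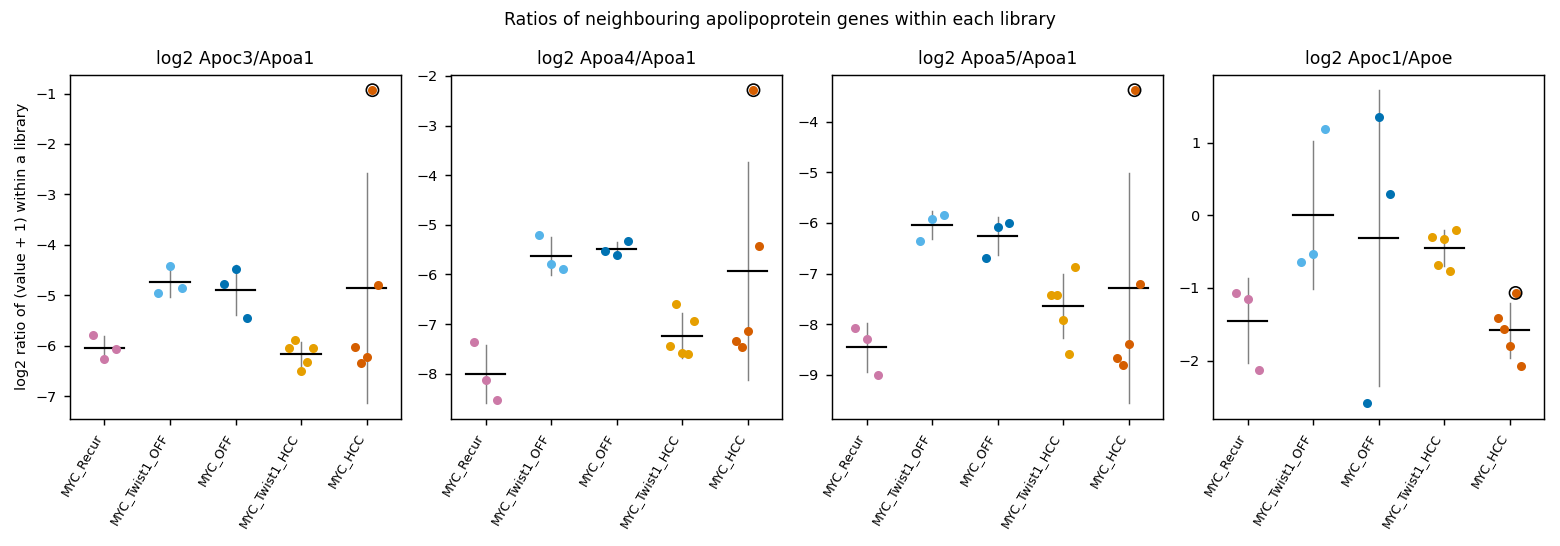
Log2 ratio of 2 apolipoprotein genes within each library, for 4 ratios, with groups from left to right MYC_Recur, MYC_Twist1_OFF, MYC_OFF, MYC_Twist1_HCC and MYC_HCC; lines are group means, grey bars 1 SD either side, and the ringed point is MYC_HCC 4. The Apoa4 to Apoa1 ratio is lowest in MYC_Recur, at -8.01 on average, and the Apoc1 to Apoe ratio separates MYC_Twist1_HCC from MYC_HCC.

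Apoh, beta-2-glycoprotein I, ran opposite to Apoa1, Apoa2, Apob and Apoe and had the largest fold changes of the 10 genes in all 3 comparisons just described. It was at 280, 75.6 and 33.3 in MYC_Recur, at 3004, 2656 and 1686 in MYC_Twist1_OFF and at 2880, 3293 and 2830 in MYC_OFF. In MYC_Twist1_HCC it was at 615, 531, 591, 247 and 758, and in MYC_HCC at 323, 133, 256, 549 and 311. All 6 OFF libraries were above all 13 others, the lowest of them at 1686 and the highest of the others at 758. The mean was 129 ± 132 in MYC_Recur (SD, n = 3) against 3001 ± 254 in MYC_OFF (SD, n = 3), a fold of 0.0302 on the fitted scale. Apoh had a log2 fold change of -5.05 (SE 0.59, adjusted p = 4.05e-06) in MYC_Recur against MYC_OFF, 2.21 (SE 0.53, adjusted p = 0.00257) in MYC_Twist1_OFF against MYC_Twist1_HCC and 3.39 (SE 0.53, adjusted p = 3.35e-05) in MYC_OFF against MYC_HCC.

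These placed Apoh at percentile 0.4 of all tested genes in MYC_Recur against MYC_OFF, 97.8 in MYC_Twist1_OFF against MYC_Twist1_HCC and 98.3 in MYC_OFF against MYC_HCC. The spread was wide in MYC_Recur, where the fold change against MYC_OFF was -5.87 without MYC_Recur 1 and -4.35 without MYC_Recur 3. In MYC_Recur against MYC_HCC the log2 fold change of Apoh was -1.66 (95% interval -2.78 to -0.55, adjusted p = 0.0508), which was not called. It was -2.48 and called without MYC_Recur 1 (adjusted p = 0.00384), and -0.96 without MYC_Recur 3 (adjusted p = 0.316). Without MYC_HCC 2 it was -1.94 (adjusted p = 0.0268), and without MYC_Twist1_HCC 4, which enters the spread only, it was called at 0.0448. In MYC_Recur against MYC_HCC, limma called 0 of the 10 genes, where 10.8% of all tested genes were called. An unadjusted p under 0.05 was found for 3 of the 10 and for 24.9% of all tested genes.

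The level of the 10 genes was also summed with and without Apoh. The sum was 1.27% to 1.28% of the library total in MYC_Recur, 0.927% to 1.01% in MYC_Twist1_OFF, 0.991% to 1.25% in MYC_OFF, 1.24% to 1.45% in MYC_Twist1_HCC and 1.37% to 2.12% in MYC_HCC. Without Apoh the remaining 9 summed to 1.22% to 1.28% in MYC_Recur, 0.405% to 0.697% in MYC_Twist1_OFF, 0.489% to 0.696% in MYC_OFF, 1.14% to 1.41% in MYC_Twist1_HCC and 1.31% to 2.01% in MYC_HCC. With Apoh left out, both OFF groups lay below MYC_Recur and both HCC groups without overlap. Since Apoh was the member that rose in both OFF groups, this follows in part from the lower Apoa1, Apoa2 and Apoe given above. It is no separate result, and the sum weights genes by values whose formula is not given.

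**Figure D4:**
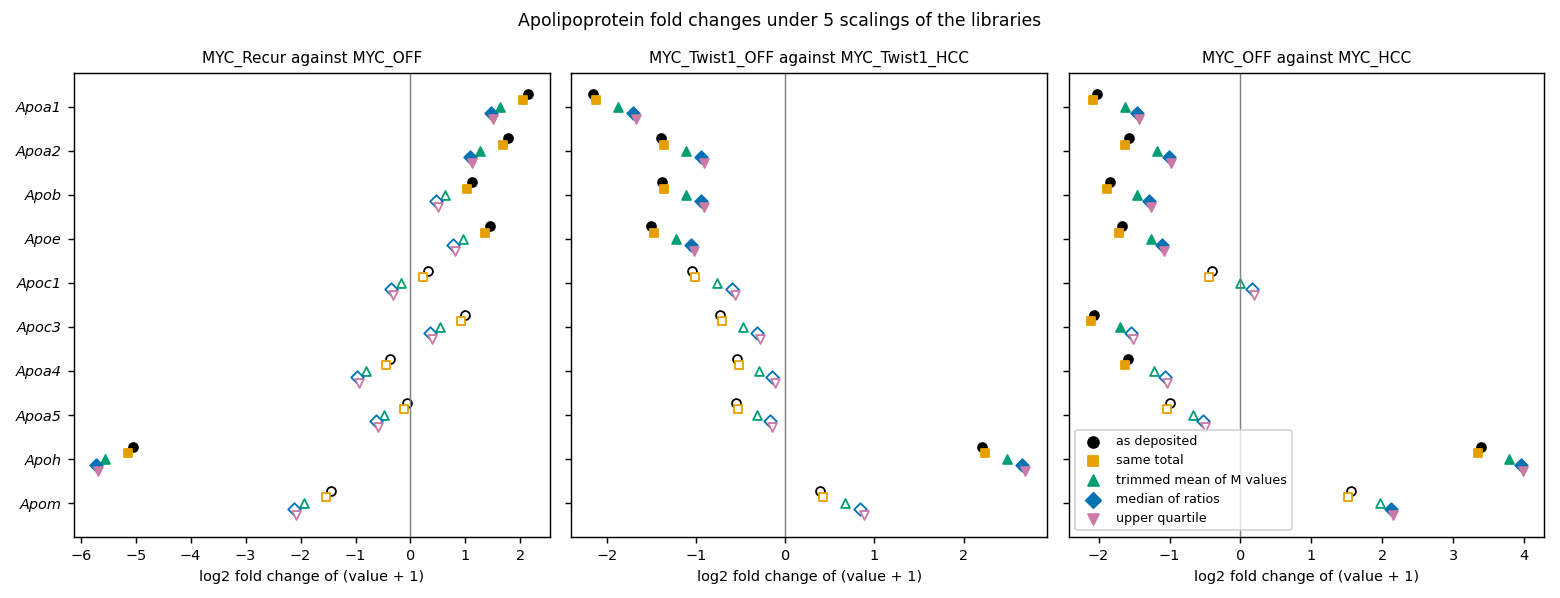
Log2 fold change of each gene in MYC_Recur against MYC_OFF, MYC_Twist1_OFF against MYC_Twist1_HCC and MYC_OFF against MYC_HCC under 5 scalings of the libraries; filled points had an adjusted p under 0.05. Apoa1 and Apoh keep their side and stay filled in all 5, with Apoh between -5.73 and -5.05 in MYC_Recur against MYC_OFF.

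The OFF groups of the 2 genotypes did not differ detectably for these genes. In MYC_Twist1_OFF against MYC_OFF, limma called 0 of the 10 genes, where 0.00755% of all tested genes were called. None of the 10 had an unadjusted p under 0.05, where 2.49% of all tested genes did. The largest log2 fold change was -0.64 for Apoe, and the others lay between -0.33 and 0.16. A p that misses the threshold does not show that the groups are alike. The difference between the 2 OFF changes, MYC_Twist1_OFF against MYC_Twist1_HCC minus MYC_OFF against MYC_HCC, was tested as an interaction. For it limma called 0 of 10 genes, where 0.0981% of all genes were called. None of the 10 had an unadjusted p under 0.05, where 7.79% of all tested genes did. The difference ranged from -1.18 for Apoh to 1.34 for Apoc3, and without MYC_HCC 4 from -1.42 for Apoh to 0.57 for Apoc3.

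Counts of genes whose groups did not overlap gave a similar picture and stood against high shares among all genes. In MYC_Recur against MYC_OFF 6 of 10 genes did not overlap, where 53.4% of all genes did not, and in MYC_Twist1_OFF against MYC_Twist1_HCC it was also 6, where 50.5% did not. In MYC_OFF against MYC_HCC it was 8 (50.1% of all genes), in MYC_Recur against MYC_HCC 2 (20.6%), in MYC_Twist1_HCC against MYC_HCC 1 (11.7%) and in MYC_Twist1_OFF against MYC_OFF 0 (4.35%).

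Genes for the assembly and secretion of Apob particles were counted in the same 3 comparisons, beside the shares of all genes given above. Of 21, 14 rose and 1 fell in MYC_Recur against MYC_OFF, 1 rose and 16 fell in MYC_Twist1_OFF against MYC_Twist1_HCC, and 1 rose and 17 fell in MYC_OFF against MYC_HCC, with median log2 fold changes of 1.10, -1.01 and -1.31. After the median-of-ratios scaling the counts were 7 and 1, 1 and 9, and 1 and 13, and Apob itself was not called in the first. Sar1b, the small GTPase of the vesicles that export these particles, had log2 fold changes of 2.24, -1.73 and -2.30 (adjusted p = 2.40e-06, 1.08e-05 and 2.54e-07). Pdia3, an oxidoreductase of the endoplasmic reticulum, had 1.86, -1.67 and -1.89.

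One gene of that list went the other way in all 3. Tm6sf2, a membrane protein that promotes lipidation of very low density lipoprotein, had log2 fold changes of -1.45, 1.92 and 3.12 (adjusted p = 0.0127, 0.000885 and 4.32e-06). It averaged 9.52 ± 4.57 in MYC_Recur, 31.7 ± 10.5 in MYC_Twist1_OFF, 27.2 ± 11.3 in MYC_OFF, 8.17 ± 3.63 in MYC_Twist1_HCC and 2.20 ± 0.978 in MYC_HCC. In these 3 comparisons its changes had the sign of those of Apoh. In MYC_Recur against MYC_HCC Tm6sf2 rose by 1.67 (adjusted p = 0.0121), where Apoh had -1.66. In MYC_Twist1_HCC against MYC_HCC it was called as well, at 1.44 (adjusted p = 0.0211).

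Of 14 other apolipoprotein genes tested, 2 rose and 1 fell in MYC_Recur against MYC_OFF, 2 rose and 4 fell in MYC_Twist1_OFF against MYC_Twist1_HCC, and 2 rose and 6 fell in MYC_OFF against MYC_HCC, with medians of 0.48, -0.26 and -0.91. After the median-of-ratios scaling these counts were 1 and 3, 2 and 2, and 4 and 4. On the deposited scale the shares of all genes that rose and fell were 37.5% and 12%, 13.1% and 33.5%, and 18.9% and 39.4%. For this list and those that follow, counts near or below these shares are no result about the list. Apoc2, the activator of lipoprotein lipase, rose by 1.86 in MYC_Recur against MYC_OFF (adjusted p = 0.000650) and fell by 1.79 in MYC_Twist1_OFF against MYC_Twist1_HCC (adjusted p = 0.000421). Apod, a lipocalin made in many tissues, had -3.30 in MYC_Recur against MYC_OFF and 4.91 in MYC_OFF against MYC_HCC. It was at most 0.20 in MYC_HCC and between 1.29 and 98.7 in MYC_Twist1_HCC, a log2 fold change of 3.82 between those groups (adjusted p = 0.00505).

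Plasma lipases and remodelling factors, 13 tested, had 6 genes higher and 0 lower in MYC_Recur against MYC_OFF, 0 and 6 in MYC_Twist1_OFF against MYC_Twist1_HCC, and 0 and 10 in MYC_OFF against MYC_HCC. After the median-of-ratios scaling the counts were 4 and 0, 1 and 3, and 0 and 6. On the deposited scale 37.5% of all genes rose in MYC_Recur against MYC_OFF. In MYC_Twist1_OFF against MYC_Twist1_HCC 33.5% fell, and in MYC_OFF against MYC_HCC 39.4% fell. Hepatic lipase, Lipc, had log2 fold changes of 2.18, -1.43 and -2.29 in these comparisons, and Angptl4, an inhibitor of lipoprotein lipase, had 1.27, -1.01 and -1.42. Lcat, which esterifies the cholesterol of high density lipoprotein with Apoa1 as its cofactor, had 1.76 in MYC_Recur against MYC_OFF (adjusted p = 0.000316).

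Receptors and uptake genes, 15 tested, had 4 higher and 0 lower in MYC_Recur against MYC_OFF, 0 and 4 in MYC_Twist1_OFF against MYC_Twist1_HCC, and 1 and 8 in MYC_OFF against MYC_HCC; after the median-of-ratios scaling these were 2 and 3, 2 and 4, and 3 and 4. For this list and the efflux list below, the deposited-scale share of all genes that rose in MYC_Recur against MYC_OFF was 37.5%. The shares that fell were 33.5% in MYC_Twist1_OFF against MYC_Twist1_HCC and 39.4% in MYC_OFF against MYC_HCC. Lsr, the lipolysis-stimulated receptor for Apob and Apoe particles, had log2 fold changes of 2.17, -2.32 and -2.88. Its mean was 46.1 in MYC_Recur, 8.26 in MYC_Twist1_OFF, 9.62 in MYC_OFF, 45.8 in MYC_Twist1_HCC and 76.4 in MYC_HCC. Sterol and lipid efflux genes, 10 tested, had 4 higher and 2 lower, 0 and 4, and 1 and 5 in the same 3 comparisons, and 2 and 2, 3 and 2, and 3 and 4 after that scaling. Abca1, which loads Apoa1 with cholesterol, was lower in MYC_Recur than in MYC_OFF at -1.96 and lower than in MYC_HCC at -1.49, whereas Abcg1 was higher in MYC_Recur than in MYC_OFF at 1.83.

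Transcription factors known to act on apolipoprotein genes did not move as 1 block. Of 23 tested, 12 rose and 3 fell in MYC_Recur against MYC_OFF, 2 rose and 12 fell in MYC_Twist1_OFF against MYC_Twist1_HCC, and 2 rose and 13 fell in MYC_OFF against MYC_HCC, and after the median-of-ratios scaling 7 and 6, 2 and 8, and 3 and 10. Cebpb, a liver and acute phase regulator, had log2 fold changes of 1.92, -1.81 and -1.97, and Foxa2, a liver pioneer factor, had -2.25, 2.98 and 6.31. Hnf4a, a nuclear receptor that acts on many of these promoters, was called in none of the comparisons and averaged 62.4 in MYC_Recur, 84.6 in MYC_Twist1_OFF, 77.9 in MYC_OFF, 83.0 in MYC_Twist1_HCC and 102 in MYC_HCC.

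**Figure D5:**
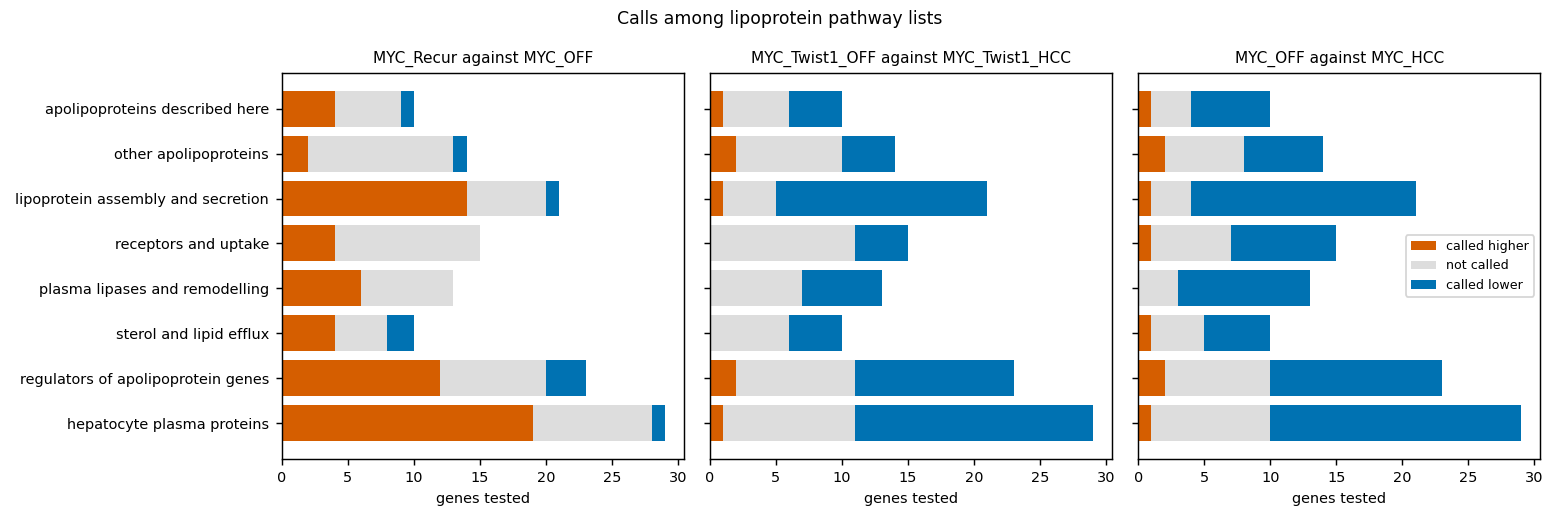
Number of tested genes called higher, not called and called lower in each of 8 gene lists, for MYC_Recur against MYC_OFF, MYC_Twist1_OFF against MYC_Twist1_HCC and MYC_OFF against MYC_HCC. In MYC_Recur against MYC_OFF the assembly list has 14 of 21 genes higher, and the 10 apolipoprotein genes 4 higher and 1 lower.

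Hepatocyte plasma protein genes were counted beside them, with 9 or 10 of 29 not called in each comparison. Of the 29, 19 rose and 1 fell in MYC_Recur against MYC_OFF, 1 rose and 18 fell in MYC_Twist1_OFF against MYC_Twist1_HCC, and 1 rose and 19 fell in MYC_OFF against MYC_HCC, with medians of 1.34, -1.18 and -1.61, and with the median-of-ratios scaling 12 and 1, 2 and 11, and 2 and 17. Their summed level ran from 11347 to 14633 in MYC_Recur, 4311 to 5993 in MYC_Twist1_OFF, 4144 to 7797 in MYC_OFF, 9334 to 12788 in MYC_Twist1_HCC and 11947 to 29872 in MYC_HCC. Serpina1b, an alpha-1-antitrypsin gene with near-identical copies, went the other way with -1.48, 1.24 and 1.08.

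Markers of other cell types were counted beside the apolipoprotein genes, on the deposited scale unless stated. Of all tested genes, 49.4% were called in either direction in MYC_Recur against MYC_OFF. That share was 46.6% in MYC_Twist1_OFF against MYC_Twist1_HCC and 58.3% in MYC_OFF against MYC_HCC. Counts near or below these shares are no result about a cell type. Endothelial markers summed to 39.5 to 70.3 in MYC_Recur, 114 to 206 in MYC_Twist1_OFF, 110 to 177 in MYC_OFF, 42.3 to 63.2 in MYC_Twist1_HCC and 48.0 to 137 in MYC_HCC, and of 10 tested 1 rose and 3 fell in MYC_Recur against MYC_OFF, 2 rose and 1 fell in MYC_Twist1_OFF against MYC_Twist1_HCC, and 3 rose and 3 fell in MYC_OFF against MYC_HCC. Macrophage markers summed to 729 to 992 in MYC_Recur, 469 to 1024 in MYC_Twist1_OFF, 686 to 767 in MYC_OFF, 548 to 782 in MYC_Twist1_HCC and 330 to 978 in MYC_HCC, and of 16 tested 3 rose and 3 fell in MYC_Recur against MYC_OFF, 4 rose and 2 fell in MYC_Twist1_OFF against MYC_Twist1_HCC, and 4 rose and 4 fell in MYC_OFF against MYC_HCC. After the median-of-ratios scaling the macrophage counts were 2 and 6, 5 and 2, and 8 and 2, and the endothelial counts 1 and 4, 4 and 1, and 5 and 2, for the same 3 comparisons. Within the macrophage list the markers split: C1qb, a complement gene of tissue macrophages, had a log2 fold change of 2.37 in MYC_Recur against MYC_OFF, and Cd163, a scavenger receptor, had -1.97.

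Stellate and fibroblast markers summed to 48.0 to 109 in MYC_Recur, 41.0 to 49.7 in MYC_Twist1_OFF, 26.5 to 59.3 in MYC_OFF, 31.7 to 39.9 in MYC_Twist1_HCC and 41.2 to 164 in MYC_HCC, and their counts higher and lower, of 11 tested, were 2 and 1 in MYC_Recur against MYC_OFF, 2 and 0 in MYC_Twist1_OFF against MYC_Twist1_HCC and 1 and 2 in MYC_OFF against MYC_HCC. Biliary markers summed to 63.4 to 73.8 in MYC_Recur, 37.0 to 45.4 in MYC_Twist1_OFF, 34.1 to 45.7 in MYC_OFF, 58.1 to 76.5 in MYC_Twist1_HCC and 26.8 to 96.1 in MYC_HCC, and of 5 tested 2 rose in MYC_Recur against MYC_OFF and 2 fell in each OFF comparison. The biliary sums of both OFF groups lay below those of MYC_Recur and MYC_Twist1_HCC without overlap. Neutrophil markers summed to 33.1 to 53.6 in MYC_Recur, 56.03 to 140 in MYC_Twist1_OFF, 38.5 to 276 in MYC_OFF, 31.2 to 62.4 in MYC_Twist1_HCC and 22.7 to 64.7 in MYC_HCC, and of 6 tested 1 rose and 2 fell in MYC_Recur against MYC_OFF and 2 rose and 1 fell in each OFF comparison. T, NK and B cell markers summed to 15.6 to 34.2 in MYC_Recur, 14.8 to 20.9 in MYC_Twist1_OFF, 10.6 to 30.9 in MYC_OFF, 5.57 to 8.72 in MYC_Twist1_HCC and 5.08 to 10.2 in MYC_HCC. Those of MYC_Recur and of both OFF groups, all from the new deposit, lay above both HCC groups without overlap. Of 8 tested, 1 rose and 3 fell in MYC_Recur against MYC_OFF, and 3 rose and 0 fell in each OFF comparison. No list had more than 3 genes at 0 in all libraries of a group. In MYC_Twist1_OFF against MYC_OFF limma called 0 of the 180 list genes tested. Of them 1 had an unadjusted p under 0.05, where 2.49% of all tested genes did. In the interaction limma called 0 of the 180, and 18 had an unadjusted p under 0.05, where 7.79% of all tested genes did. The part of these cell type differences in the apolipoprotein results was not tested.

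Finally, genes whose library-to-library deviations from the group means were most like those of each member were listed by Pearson r over the 19 libraries, as a description. The r without MYC_HCC 4, a setting chosen after seeing the data, is given after each. For Apoa1 these genes were Hnrnpa1 (0.951, and 0.910 without it) and Rpl41 (0.941 and 0.885). For Apoe they were Sod1 (0.951 and 0.955) and Gm10012 (0.937 and 0.936), for Apob Decr1 (0.905 and 0.804) and Aspa (0.879 and 0.741), and for Apoh Map4k4 (0.912 and 0.937) and Rpl34-ps1 (0.889 and 0.971). For Apoa5 they were Egfr (0.986 and 0.921) and Prg4 (0.970 and 0.803), and for Apoc3 Gsta3 (0.980 and 0.874) and Mup10 (0.975 and 0.837). For Apom they were Obsl1 (0.963 and 0.136) and Cdkn1c (0.958 and 0.505), the widest drop without that library of the genes listed. Among the members, Apoa4 and Apoc3 had an r of 0.903, which was 0.538 without MYC_HCC 4, and Apoc3 and Apom had -0.920, which was -0.337 without it. Apoa2 and Apoe had 0.719 with all libraries and 0.706 without MYC_HCC 4.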

How the data were processed

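Per the labels' protocols, RNA of 19 frozen mouse liver tumors was purified by Qiagen RNeasy and prepared for sequencing at BGI standards. The authors deposited 1 table of normalised signal values, 1 row per gene symbol and 1 column per library, with 2 decimals. The submitters' processing notes name Trimmomatic, STAR, Picard, featureCounts, DESeq2 and mm10; which step each did, its version, the annotation and the formula are not stated there. These values are not whole numbers, so depth is unknown and no counting interval can be given. Column totals ran from 507868 to 690310, and no 2 columns were identical.

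From the 19511 symbols, 25 bare numbers were left out. Genes with a value of at least 1 in at least 3 libraries (13253) were fitted with limma 3.58.1 in R 4.3.3 on log2(value + 1), with 5 group means, an intensity trend and Benjamini-Hochberg adjustment; the fit was tested on simulated data. Ratios within a library were compared by two-sided exact permutation tests (scipy 1.17.1, Python 3.11.15). Alternatives were other pseudocounts, filters and scalings, no intensity trend, a replicate block, the compared groups alone and each library left out. All 10 members are named; of each list, up to 3 called genes with the smallest p per comparison and 1 called in the other direction were eligible. Mttp, Hnf4a, Prkca, Myc, Twist1 and Alb were named outside that rule, with values in view. The members and lists were chosen with earlier results of these data known. Positions are from GENCODE vM21 (GRCm38) and promoter sequence from RefSeq.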

Additional observations from a re-analysis of the deposited data

Results flagged for a closer look

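For 6 of the 10 genes, 1 library lay far from the other 4 of its group: its gap to the nearest library, as a share of the whole range of the 5, passed the Dixon limit of 0.71. The library was MYC_HCC 4 each time. The share was 0.938 for Apoa5, 0.931 for Apoc3, 0.879 for Apob, 0.870 for Apoa4, 0.820 for Apom and 0.764 for Apoc1. Apom was low in it and the other 5 genes were high. This was looked for in 20 groups of 5 values on the deposited scale, not on the log2 scale of the fits. Chance marks about 1 in 20 only where values are normally distributed, and shares on the log2 scale were not taken. The 10 genes of a library are not independent. Apoa1, at 886, was the lowest of its group in the same library without passing the limit, and Apoa2, Apoe and Apoh were the highest of their group. Calls that change without MYC_HCC 4 are given beside the genes above, and what sets this library apart was not tested.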

How the results depend on the processing

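Across 31 alternatives none of the 17 called fold changes of the 10 genes reversed; of 2170 combinations of a fold change and an alternative, 2052 kept their direction and side of the threshold, 23 lost a call, 36 gained one and 59 reversed, all of fold changes that were not called and none larger than 0.939. Causes of these changes were not tested. Some alternatives cannot alter a fold change, only its p: other filters, no intensity trend, and the compared groups fitted alone. The same holds for leaving out a library of a group outside the comparison. A reversal was not possible under these, so the counts above include combinations that could not reverse. Depth is unknown, so what low values such as those of Apoa4 and Apoa5 can show cannot be stated.

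Scaling by median of ratios, trimmed mean of M values and upper quartile gave 3 called members each in MYC_Recur against MYC_OFF, not 5, and 3, 3 and 1 in MYC_Recur against MYC_HCC, not 0. There, equal totals gave 1 and a pseudocount of 0.1 or a filter of at least 5 in 3 libraries gave 2 each. With median of ratios the reversed fold changes were Apoc1 at 0.17 in MYC_OFF against MYC_HCC and -0.36 in MYC_Recur against MYC_OFF, Apoa1 at -0.0059 in MYC_Recur against MYC_HCC, and Apoa2 at -0.019 and Apom at -0.054 in MYC_Twist1_OFF against MYC_OFF. With trimmed mean of M values they were Apoc1 at -0.18 in MYC_Recur against MYC_OFF, and Apoa2 at -0.024 and Apom at -0.059 in MYC_Twist1_OFF against MYC_OFF. With upper quartile Apoc1 was at 0.20 in MYC_OFF against MYC_HCC and -0.32 in MYC_Recur against MYC_OFF. With equal totals Apoa1 was at -0.025 and Apom at -0.010 in MYC_Recur against MYC_HCC, and Apoa1 at 0.029 in MYC_Twist1_OFF against MYC_OFF. Over all genes, MYC_Twist1_OFF against MYC_OFF had 1 call, and 0 with a pseudocount of 0.1, 2 with 5, 3 with no filter and 0 with the 2 groups fitted alone; the interaction had 13, and 7 with a pseudocount of 0.1 and 4 with no filter. The groups fitted alone gave 1 member in MYC_Twist1_HCC against MYC_HCC, not 0.

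Replicate numbers showed no pairing common to all comparisons: same-numbered deviations correlated between -0.17 and 0.38, with both signs. In MYC_Twist1_OFF against MYC_Twist1_HCC they were 0.014, 0.231 and 0.384, beside a highest r with another number of 0.143, 0.123 and -0.006. Groups this small cannot exclude pairing in some comparisons. A fit with a replicate block gave 936 genes in MYC_Recur against MYC_HCC, not 1435, and 0 in MYC_Twist1_OFF against MYC_OFF; counts of members in the other comparisons stayed within 1.5 times. Under the replicate block the call of Apoa4 in MYC_OFF against MYC_HCC was lost (-1.04, limma adjusted p = 0.115), the only called member fold change it changed. Under it the reversed values were Apom -0.12 in MYC_Twist1_OFF against MYC_Twist1_HCC, and Apoa1 -0.030, Apom -0.39 and Apoc1 0.013 in MYC_Recur against MYC_HCC.

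Leaving out both MYC_HCC 4 and MYC_HCC 5 gave 350 genes in MYC_Twist1_HCC against MYC_HCC (852 with all libraries), 834 in MYC_Recur against MYC_HCC and 5 in the interaction. The reversed values were then Apoa1 -0.28 and Apoa5 0.70 in MYC_Twist1_HCC against MYC_HCC; Apoa1 -0.24, Apom -0.91 and Apoc1 0.10 in MYC_Recur against MYC_HCC; and Apoa1 0.22, Apoa4 -0.0034, Apoa5 -0.54 and Apoe -0.014 in the interaction. For log2 ratios they were 0.087 (Apoa4 to Apoa1), 0.035 (Apoc3 to Apoa1), 0.98 (Apoa5 to Apoa1) and 0.17 (Apoa2 to Apoa1) in MYC_Twist1_HCC against MYC_HCC, 1.29 (Apoc3 to Apoa1) in MYC_OFF against MYC_HCC, and 0.15 (Apoc3 to Apoa1) and 0.16 (Apoa5 to Apoa1) in MYC_Recur against MYC_HCC.

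Leaving out 1 library at a time gave 0 to 1 called members in MYC_Twist1_HCC against MYC_HCC and 0 to 2 in MYC_Recur against MYC_HCC. Over all genes it gave 389 to 1181 in MYC_Twist1_HCC against MYC_HCC, 806 to 1701 in MYC_Recur against MYC_HCC, 0 to 21 in MYC_Twist1_OFF against MYC_OFF and 1 to 49 in the interaction. Uncalled fold changes that changed sign ranged, in MYC_Twist1_HCC against MYC_HCC, from -0.15 to 0.23 for Apoa1, -0.55 to 0.47 for Apoa5 and -0.26 to 0.058 for Apoa2. In MYC_OFF against MYC_HCC Apoc1 ranged from -1.01 to 0.19. In MYC_Recur against MYC_OFF Apoc1 ranged from -0.27 to 0.93 and Apoa5 from -0.26 to 0.20. In MYC_Recur against MYC_HCC Apoa1 ranged from -0.11 to 0.27, Apom from -0.94 to 0.41 and Apoc1 from -0.23 to 0.15. In MYC_Twist1_OFF against MYC_OFF the ranges were -0.14 to 0.42 for Apoa2, -0.19 to 0.29 for Apom, -0.18 to 0.12 for Apoa1, -0.032 to 0.47 for Apoa5, -0.27 to 0.12 for Apob, -0.91 to 0.29 for Apoc1 and -0.21 to 0.36 for Apoc3. In the interaction they were -0.29 to 0.096 for Apoa1, -0.31 to 0.76 for Apoa5, -0.16 to 0.70 for Apoe and -0.047 to 0.51 for Apoa2.

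Log2 ratios that changed sign with 1 library left out ranged, in MYC_Twist1_HCC against MYC_HCC, from -0.73 to 0.62 for Apoa5 to Apoa1 and -0.35 to 0.21 for Apoa2 to Apoa1, and in MYC_OFF against MYC_HCC from -0.41 to 0.94 for Apoc3 to Apoa1. In MYC_Recur against MYC_HCC they ranged from -0.056 to 0.47 for Apoc1 to Apoe and -0.099 to 0.46 for Apoa2 to Apoa1, and in MYC_Twist1_OFF against MYC_Twist1_HCC from -0.13 to 0.78 for Apoc1 to Apoe. In MYC_Twist1_OFF against MYC_OFF they ranged from -0.11 to 0.37 for Apoc3 to Apoa1, -0.0007 to 0.38 for Apoa5 to Apoa1, -0.82 to 1.15 for Apoc1 to Apoe and -0.079 to 0.35 for Apoa2 to Apoa1.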
